A study of Mus musculus with 6 samples.

Results

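Mouse embryonic fibroblasts that lack the Ink4a/Arf locus were compared with fibroblasts that carry it, in cells whose Ezh2 alleles were floxed and not deleted. The comparison was chosen by genotype label: 2 arrays of Ink4a/Arf-/- Ezh2 fx/fx cells (replicates 1 and 2) were set against 1 array of Ink4a/Arf+/+ Ezh2 fx/fx cells, which makes 3 of the 6 arrays of the series. The other 3 arrays hold Ezh2 -/- cells, as 2 arrays of Ink4a/Arf-/- Ezh2 -/- cells and 1 array of Ink4a/Arf+/+ Ezh2 -/- cells. They were used to look at the same contrast in cells labelled Ezh2 -/-. All cells were lines of mouse embryonic fibroblasts (MEF), fibroblasts grown out of mid-gestation embryos, from Ola129 mice. The culture dishes were coated with gelatin, the medium held serum and the cytokine LIF, and total RNA was taken from cells in exponential growth. No label gives an age, a sex, a Cre line or the number of embryos or lines behind an array, and a text on the design speaks of Ezh2 and control esiRNA transfection where the array titles give genotypes; the titles were used. Nothing in the labels says that the 2 Ink4a/Arf-/- replicates came from separate cultures, so the spread between them may be technical.

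The Ink4a/Arf locus, Cdkn2a, encodes p16Ink4a and p19Arf from separate first exons read in different frames. p16Ink4a inhibits Cdk4 and Cdk6 and so keeps the retinoblastoma protein active, while p19Arf inhibits Mdm2 and so stabilises p53. In cultured mouse fibroblasts both accumulate with passage and are part of the growth arrest known as senescence, and Polycomb complexes, of which Ezh2 is the histone H3 lysine 27 methyltransferase, are known to repress the locus. Cdkn2b, the neighbouring gene, encodes p15Ink4b, another inhibitor of Cdk4 and Cdk6.

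The locus in which the cells differ is shown first, as the 250 bases upstream of the annotated start sites of Cdkn2a and Cdkn2b in RefSeq (mouse build GRCm38.p6, minus strand, printed 5′ to 3′ in lower case with no motif marked). The Cdkn2a start sites lie 12427 bases apart on chromosome 4, and the Cdkn2b start site lies 16413 bases from the nearer of them. The promoters span chr4:89294620-89294869 for Cdkn2a start site 1, chr4:89282193-89282442 for Cdkn2a start site 2 and chr4:89311033-89311282 for Cdkn2b. The array files name no genome build, so these places come from RefSeq and not from the probes.
Cdkn2a start site 1: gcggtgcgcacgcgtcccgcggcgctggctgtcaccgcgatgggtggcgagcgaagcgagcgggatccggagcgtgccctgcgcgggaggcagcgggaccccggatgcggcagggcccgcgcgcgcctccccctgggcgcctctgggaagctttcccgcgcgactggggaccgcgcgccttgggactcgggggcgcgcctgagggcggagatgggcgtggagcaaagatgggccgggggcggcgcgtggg
Cdkn2a start site 2: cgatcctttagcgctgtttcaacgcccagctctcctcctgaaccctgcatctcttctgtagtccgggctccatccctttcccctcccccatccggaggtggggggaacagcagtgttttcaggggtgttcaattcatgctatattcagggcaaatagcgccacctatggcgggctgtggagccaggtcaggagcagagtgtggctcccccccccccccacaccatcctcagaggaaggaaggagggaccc
Cdkn2b: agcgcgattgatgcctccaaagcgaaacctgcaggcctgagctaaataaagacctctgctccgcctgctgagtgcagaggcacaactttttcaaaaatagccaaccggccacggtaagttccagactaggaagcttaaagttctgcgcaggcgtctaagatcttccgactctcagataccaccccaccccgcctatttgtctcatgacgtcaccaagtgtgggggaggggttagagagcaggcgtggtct

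The data are log2 levels of 23346 probe sets of an Affymetrix whole-transcript array, deposited as 2 tables, 1 for each Ink4a/Arf background. The tables were normalized separately: the medians of the deposited log2 levels were 8.25 to 8.32 on the 4 Ink4a/Arf-/- arrays and 7.50 to 7.51 on the 2 Ink4a/Arf+/+ arrays, with standard deviations of 2.18 to 2.24 and 2.42 to 2.43 over probe sets. The 6 arrays were therefore quantile-normalized together, and every level below is a log2 level on that common scale. Background and table are the same split, so an effect of the genotype and an effect of how each table was made cannot be told apart, no test was run across the tables, and the results are descriptions of 3 arrays. A probe set was called when both Ink4a/Arf-/- arrays lay at least 2-fold (1 on the log2 scale) above, or both below, the Ink4a/Arf+/+ array. The deposited levels carry no detection calls, and the number of arrays limits the precision of every value.

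The 2 Ink4a/Arf-/- arrays were close to each other. Their levels correlated with r = 0.997 over 23346 probe sets (probe sets are not independent replicates), their differences had an SD of 0.18 on the log2 scale, and 31 probe sets (0.133%) differed 2-fold or more. Against the Ink4a/Arf+/+ array, replicate 1 differed 2-fold or more at 1439 probe sets (6.16%) and replicate 2 at 1394 (5.97%). Replicate 1 stood somewhat apart from the other 3 Ink4a/Arf-/- arrays: it carried most of a principal component that held 3.91% of the variance among the 6 arrays, whereas the component that separated the backgrounds held 84.1%. Counts of calls made from replicate 2 alone are therefore given where they matter.

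Markers of fibroblasts were bright in both groups. Vim, an intermediate filament gene of mesenchymal cells, read 14.02 and 14.07 on the Ink4a/Arf-/- arrays and 14.07 on the Ink4a/Arf+/+ array. Col1a1, a chain of type I collagen, read 13.35 and 13.35 in Ink4a/Arf-/- cells and 13.64 in Ink4a/Arf+/+ cells. The 18 fibroblast markers had median within-array percentiles of 93.1 and 93.4 in Ink4a/Arf-/- cells and 93.7 in Ink4a/Arf+/+ cells. Twist2 and Fap were called higher in Ink4a/Arf-/- cells and Lum was called lower. On the Ink4a/Arf+/+ array Fap lay at percentile 12.2, while the cartilage genes Col2a1 and Sox9 lay at 98.9 and 97.7. The median percentile of the 13 cartilage and bone markers was 47.8 there. The medians alone therefore do not settle the cell type. The 12 epithelial markers had median percentiles of 36.0, 37.6 and 35.7 on the same 3 arrays.

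Cdkn2a read 7.98 and 7.95 in Ink4a/Arf-/- cells and 8.39 in Ink4a/Arf+/+ cells, at the 49.6th and 49.2nd against the 54.7th percentile of each array. The Ink4a/Arf+/+ array was the highest of the 3, but the mean difference of -0.43 fell short of the 2-fold threshold. In Ezh2 -/- cells the difference was -1.15 and Cdkn2a was called lower. No source states which exons the probes of this set cover, so this value checks no genotype label. Ezh2 read 10.73 and 10.74 in Ink4a/Arf-/- cells and 10.82 in Ink4a/Arf+/+ cells, a difference of -0.08. On the arrays labelled Ezh2 -/- it still read 10.44 and 10.36 in Ink4a/Arf-/- cells and 10.47 in Ink4a/Arf+/+ cells. The exons that its probes cover are not stated either, so these values check no Ezh2 label.

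Cdkn2b was the called gene of the region. It read 11.21 and 11.22 in Ink4a/Arf-/- cells and 9.12 in Ink4a/Arf+/+ cells, 2.10 higher on the log2 scale, and its percentile was 90.2 and 90.3 in Ink4a/Arf-/- cells against 64.4 in Ink4a/Arf+/+ cells. In Ezh2 -/- cells the same difference was 1.66. Mtap, the methylthioadenosine phosphorylase gene on the other side of Cdkn2a, read 11.05 and 11.06 in Ink4a/Arf-/- cells and 10.39 in Ink4a/Arf+/+ cells, which did not reach the threshold. Of the 10 named genes on each side of Cdkn2a in the RefSeq gene order, Cdkn2b alone was called; the other 19, among them the type I interferon genes Ifna4 and Ifne, differed by -0.63 to 0.77.

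Over the array, 457 of 20723 genes (2.21%) were called higher and 593 (2.86%) were called lower in Ink4a/Arf-/- cells, with 1 probe set counted for each gene. At 4-fold or more on both arrays, 58 genes were higher and 139 lower, and at 8-fold or more 4 were higher and 26 lower. The median difference over all genes was 0.02 and the SD of the differences 0.55. Genes called higher had a median percentile of 64.1 in Ink4a/Arf-/- cells and 44.5 in Ink4a/Arf+/+ cells, and genes called lower had 50.3 in Ink4a/Arf-/- cells and 75.4 in Ink4a/Arf+/+ cells. By probe set, 534 were higher (2.29%) and 655 lower (2.81%), so 44.9% of the calls were higher. Without the joint normalization levels in Ink4a/Arf-/- cells are shifted upward, by a median of 0.81, and 96.6% of the calls become higher; the directions below are relative to the other probe sets of the same arrays.

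**Figure D1:**
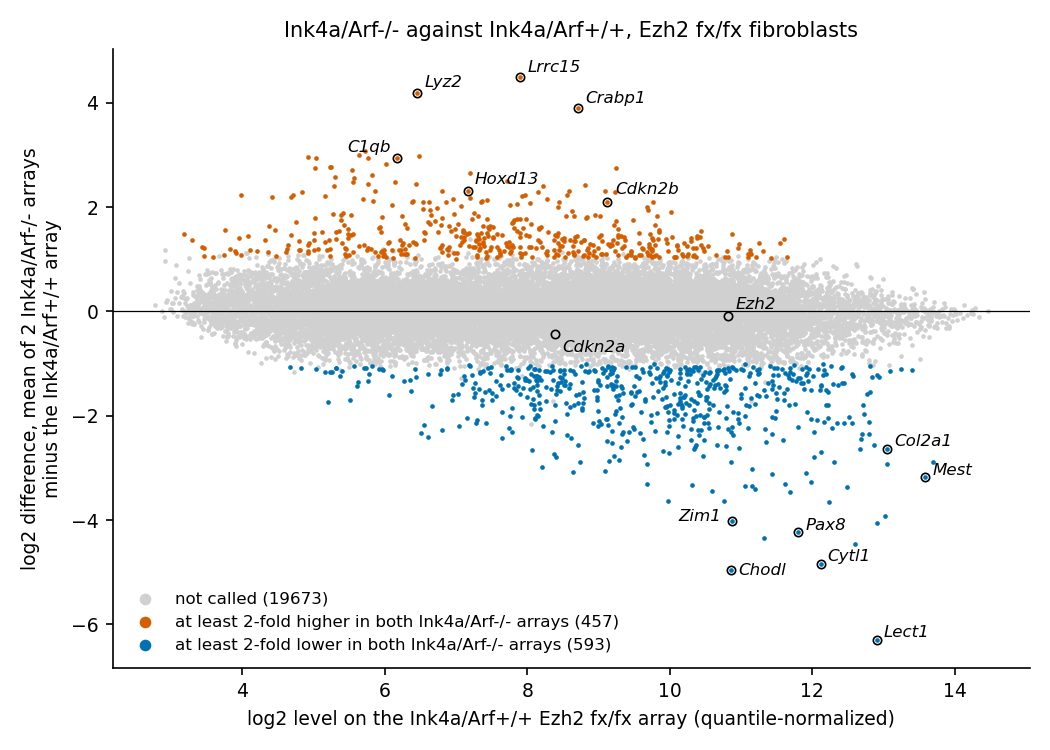
Mean log2 difference of the 2 Ink4a/Arf-/- arrays from the Ink4a/Arf+/+ array (vertical axis) against the log2 level on the Ink4a/Arf+/+ array (horizontal axis), 1 point per gene, all Ezh2 fx/fx. Orange points are the 457 genes called higher, blue points the 593 called lower, and circles mark genes named in the text; Lect1 lies lowest at -6.29 and Lrrc15 highest at 4.49, with Cdkn2a and Ezh2 near 0.

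Lrrc15, a leucine-rich repeat membrane protein of activated fibroblasts, differed most upward. It read 12.36 and 12.41 in Ink4a/Arf-/- cells and 7.90 in Ink4a/Arf+/+ cells, a 22.4-fold difference. Crabp1, which binds retinoic acid in the cytoplasm, read 12.64 and 12.58 in Ink4a/Arf-/- cells and 8.71 in Ink4a/Arf+/+ cells. For both genes the 2 Ink4a/Arf-/- arrays lay together and far from the Ink4a/Arf+/+ array. Cd24a, a lipid-anchored surface glycoprotein, read 11.93 and 12.04 against 9.24 in Ink4a/Arf+/+ cells, and Gatm, the first enzyme of creatine synthesis, read 9.89 and 9.80 against 7.19. Pkp2, a plakophilin of desmosomes, read 10.24 and 10.18 in Ink4a/Arf-/- cells and 7.71 in Ink4a/Arf+/+ cells. Genes best known from neurons were also among the 20 largest: the synaptic adhesion gene Lrrc4c read 8.62 and 8.65 in Ink4a/Arf-/- cells and 5.63 in Ink4a/Arf+/+ cells, the proteoglycan gene Spock3 was higher by 2.82 and the GABA receptor subunit gene Gabrb1 by 2.76.

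Lect1 (now Cnmd), which encodes the cartilage glycoprotein chondromodulin, read 6.63 and 6.62 in Ink4a/Arf-/- cells and 12.91 in Ink4a/Arf+/+ cells. Its percentile was 28.5 and 28.3 in Ink4a/Arf-/- cells against 98.6 in Ink4a/Arf+/+ cells, and its difference of -6.29 was larger in size than any other among the called genes. Chodl, which encodes the lectin chondrolectin, read 5.95 and 5.88 in Ink4a/Arf-/- cells and 10.86 in Ink4a/Arf+/+ cells. Cytl1, a secreted protein of cartilage, read 7.26 and 7.30 against 12.12 in Ink4a/Arf+/+ cells, and the leucine-rich proteoglycan Prelp read 8.20 and 8.08 against 12.59.

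Pax8, a transcription factor of thyroid and kidney, read 7.59 and 7.55 in Ink4a/Arf-/- cells and 11.81 in Ink4a/Arf+/+ cells. Penk, the proenkephalin gene, read 8.66 and 9.04 against 12.90 in Ink4a/Arf+/+ cells, and Itga2, the alpha subunit of a collagen-binding integrin, read 7.79 and 7.77 against 11.19. Abi3bp, a matrix protein gene, had a difference of -3.91, the mesenchymal surface protein gene Islr had a difference of -3.66, and the Notch pathway ligand gene Dner had -3.44. Serpinb1a, an inhibitor of neutrophil proteases, read 6.57 and 6.11 in Ink4a/Arf-/- cells and 9.98 in Ink4a/Arf+/+ cells, with a wider gap between the replicates than Itga2 had.

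**Figure D2:**
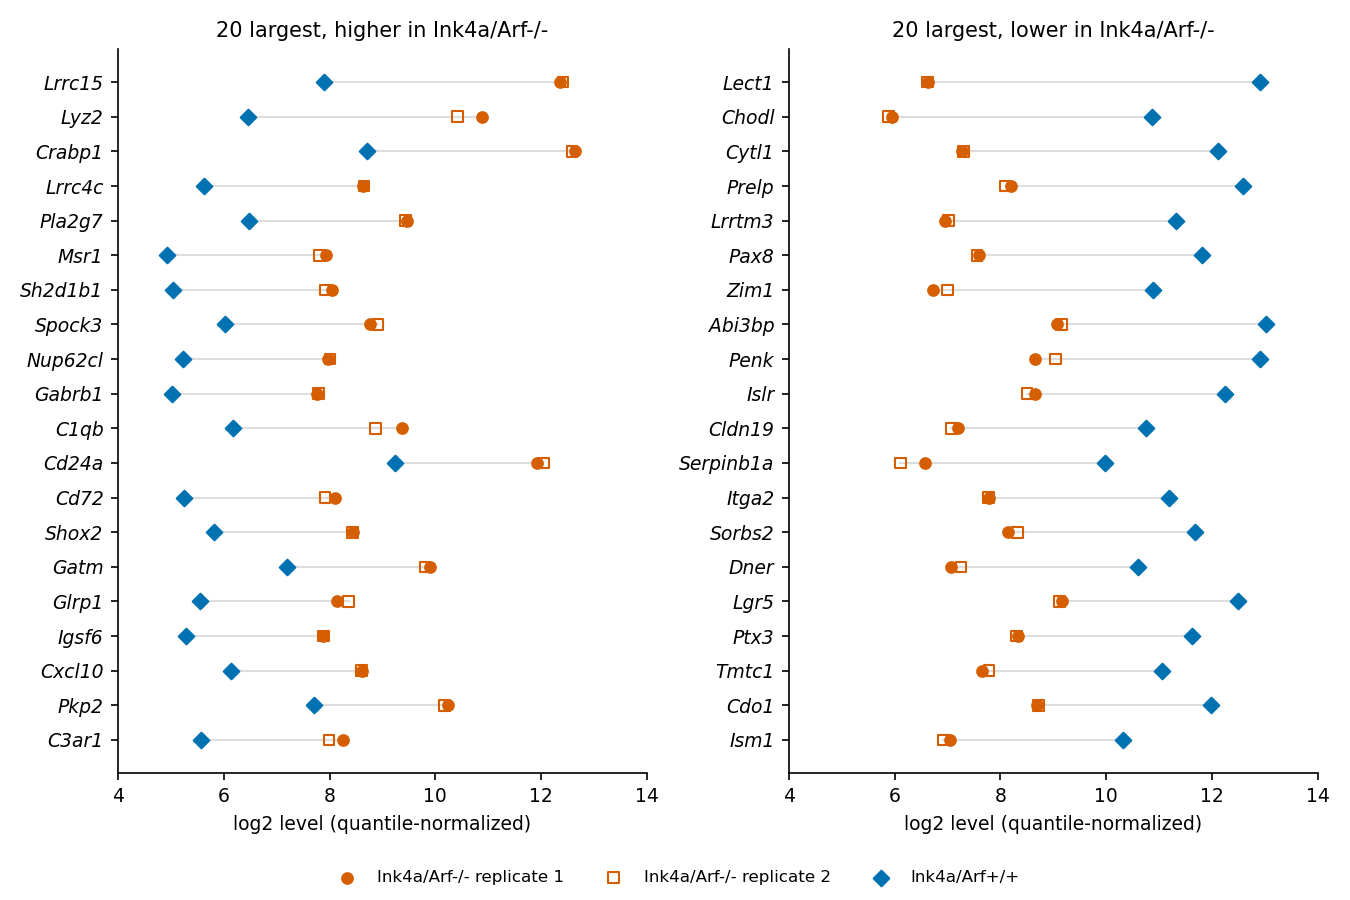
Log2 levels on each of the 3 arrays for the 20 genes with the largest upward (left) and downward (right) lesser difference, which is that of the replicate nearer to the Ink4a/Arf+/+ array. Orange circles and open squares are the Ink4a/Arf-/- replicates and blue diamonds the Ink4a/Arf+/+ array; the replicates lie at most 0.49 apart (C1qb). The rule that chose the genes keeps the groups apart.

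Among the inhibitors of cyclin-dependent kinases, 1 of 7 genes was called higher, Cdkn2b, and 1 was called lower, Cdkn2c. Of all genes, 2.21% were called higher and 2.86% lower. Cdkn2c, which encodes p18Ink4c, read 9.12 and 9.12 in Ink4a/Arf-/- cells and 10.24 in Ink4a/Arf+/+ cells. Cdkn1a, which encodes the p53-induced inhibitor p21, read 12.33 and 12.37 in Ink4a/Arf-/- cells and 12.47 in Ink4a/Arf+/+ cells, a difference of -0.11. Cdkn1b, which encodes p27, read 10.97 and 11.09 against 11.46 in Ink4a/Arf+/+ cells. The median difference of the 7 genes was -0.36, beside 0.02 over all genes.

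Of 25 genes of the E2F factors and the G1/S transition, 2 were called higher and none lower, beside 2.21% and 2.86% of all genes. Cdk6, a kinase that p16Ink4a inhibits, read 11.11 and 11.22 in Ink4a/Arf-/- cells and 9.75 in Ink4a/Arf+/+ cells, 1.41 higher. E2f6, a repressive member of the E2F family, read 10.38 and 10.41 against 9.24 in Ink4a/Arf+/+ cells. Myc read 12.25 and 12.23 in Ink4a/Arf-/- cells and 11.63 in Ink4a/Arf+/+ cells and was not called. Rb1, the retinoblastoma gene, read 9.25 and 9.25 against 9.78, and Ccnd1, a D-type cyclin that activates Cdk4 and Cdk6, read 12.44 and 12.38 against 12.49 in Ink4a/Arf+/+ cells.

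None of 55 DNA replication genes was called, beside 2.21% of all genes called higher and 2.86% called lower. But 42 of the 55 lay above the Ink4a/Arf+/+ array on both Ink4a/Arf-/- arrays and 6 lay below it on both. Of all genes, 46.3% lay above and 42.6% below on both arrays. The replication genes' median difference was 0.26 in Ezh2 fx/fx cells and 0.45 in Ezh2 -/- cells, beside 0.02 and 0.01 over all genes. Prim1, the catalytic subunit of primase, read 9.77 and 9.75 in Ink4a/Arf-/- cells and 8.76 in Ink4a/Arf+/+ cells, just inside the threshold. Gins1, a subunit of the replicative helicase, read 8.34 and 8.38 against 7.35 in Ink4a/Arf+/+ cells, and Cdc45, another helicase subunit, read 9.52 and 9.42 against 8.71. Mcm6, of the helicase core, read 10.30 and 10.50 in Ink4a/Arf-/- cells and 10.29 in Ink4a/Arf+/+ cells, so the group did not move as a block. The list's excess over the median of all genes stayed positive, at 0.06, when the deposited levels were only centred on each array's median.

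None of 31 genes of G2/M and mitosis was called, beside 2.21% of all genes called higher and 2.86% called lower. Their median difference was 0.18. Relative to all genes it was 0.16, but -0.15 when the deposited levels were only centred. Cenpa, the centromeric histone H3 variant, read 11.35 and 11.29 in Ink4a/Arf-/- cells and 10.48 in Ink4a/Arf+/+ cells, and Cdk1 read 12.03 and 11.96 against 11.37. Mki67, a marker of cycling cells, read 11.64 and 11.82 in Ink4a/Arf-/- cells and 11.92 in Ink4a/Arf+/+ cells. Of 33 genes of DNA damage response and repair none was called, beside the same shares, and their median difference was 0.04. The checkpoint kinase gene Chek2 read 8.65 and 8.84 against 7.77 in Ink4a/Arf+/+ cells, and Chek1 read 9.93 and 10.09 against 9.10. In the other direction, H2afx read 10.22 and 10.08 in Ink4a/Arf-/- cells and 11.10 in Ink4a/Arf+/+ cells.

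None of 15 genes for p53 and its regulators was called, and 3 of 33 p53 target genes were, beside 2.21% of all genes called higher and 2.86% called lower. Trp53 read 12.85 and 12.90 in Ink4a/Arf-/- cells and 12.45 in Ink4a/Arf+/+ cells, and Mdm2, the ubiquitin ligase that p19Arf inhibits, read 11.21 and 11.39 against 10.37. Replicate 2 alone put Mdm2 over the threshold. Of the target genes, Plk2 was called higher, a call lost when the deposited levels were only centred, and the desmosomal gene Perp and the death receptor gene Fas were called lower. Perp read 6.84 and 7.07 in Ink4a/Arf-/- cells and 8.71 in Ink4a/Arf+/+ cells, and Fas read 6.42 and 6.44 against 7.81. From replicate 2 alone, 2 target genes were higher (Plk2 and Mdm2, which is on both lists) and 3 lower (Perp, Fas and Ddit4l). The target list's median difference was 0.03 and fell below that of all genes when the deposited levels were only centred, and Ccng1, a widely used p53 target, read 12.69 and 12.74 in Ink4a/Arf-/- cells and 12.60 in Ink4a/Arf+/+ cells.

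None of 28 genes for Polycomb subunits was called, beside 2.21% of all genes called higher and 2.86% called lower. Their median difference was -0.08, beside 0.02 over all genes. Pcgf5, a ring finger subunit of a variant repressive complex, read 8.86 and 9.02 in Ink4a/Arf-/- cells and 8.06 in Ink4a/Arf+/+ cells. Phc3, a polyhomeotic subunit, read 9.29 and 9.52 against 10.31 in Ink4a/Arf+/+ cells. In both, the Ink4a/Arf-/- arrays lay on the same side of the Ink4a/Arf+/+ array, within 2-fold of it.

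Hox genes encode the transcription factors that set position along the body axis and the limb, and 8 of 39 measured were called higher and 1 lower, beside 2.21% and 2.86% of all genes. The calls concentrated at the 5′ end of the Hoxd cluster, where the neighbouring genes Hoxd13, Hoxd12, Hoxd11 and Hoxd10, which pattern the distal limb, were all called. Hoxd13 read 9.46 and 9.50 in Ink4a/Arf-/- cells and 7.16 in Ink4a/Arf+/+ cells. Hoxd11 read 9.10 and 9.01 against 7.45 in Ink4a/Arf+/+ cells. Hoxd9, the next gene of the cluster, read 7.45 and 7.41 in Ink4a/Arf-/- cells and 7.53 in Ink4a/Arf+/+ cells, so the higher levels ended between Hoxd10 and Hoxd9. Hoxa11, Hoxc4, Hoxc5 and Hoxc10 were the other genes called higher, and Hoxa9, Hoxa10 and Hoxa13 lay just below the threshold on at least 1 array. Hoxa13 read 8.54 and 8.52 in Ink4a/Arf-/- cells and 7.53 in Ink4a/Arf+/+ cells. Hoxa2, which patterns the second pharyngeal arch and the hindbrain, read 8.01 and 8.06 in Ink4a/Arf-/- cells and 9.56 in Ink4a/Arf+/+ cells and was the gene called lower.

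By cluster, the median difference was 0.18 for 11 Hoxa genes, 0.14 for 10 Hoxb genes, 0.80 for 9 Hoxc genes and 0.04 for 9 Hoxd genes, where the 5′ genes and the rest differed. In Ezh2 -/- cells the same medians were -0.44, -0.67, -0.21 and -0.03, and 3 Hox genes were called higher and 3 lower. Hoxd13 kept a difference of 1.58 there and Hoxd12 one of 1.26. Hoxc8 differed by 0.39 in Ezh2 fx/fx cells and by -1.13 in Ezh2 -/- cells. The difference between the Ezh2 states was not tested. From replicate 2 alone, 10 Hox genes were higher and 1 lower.

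**Figure D3:**
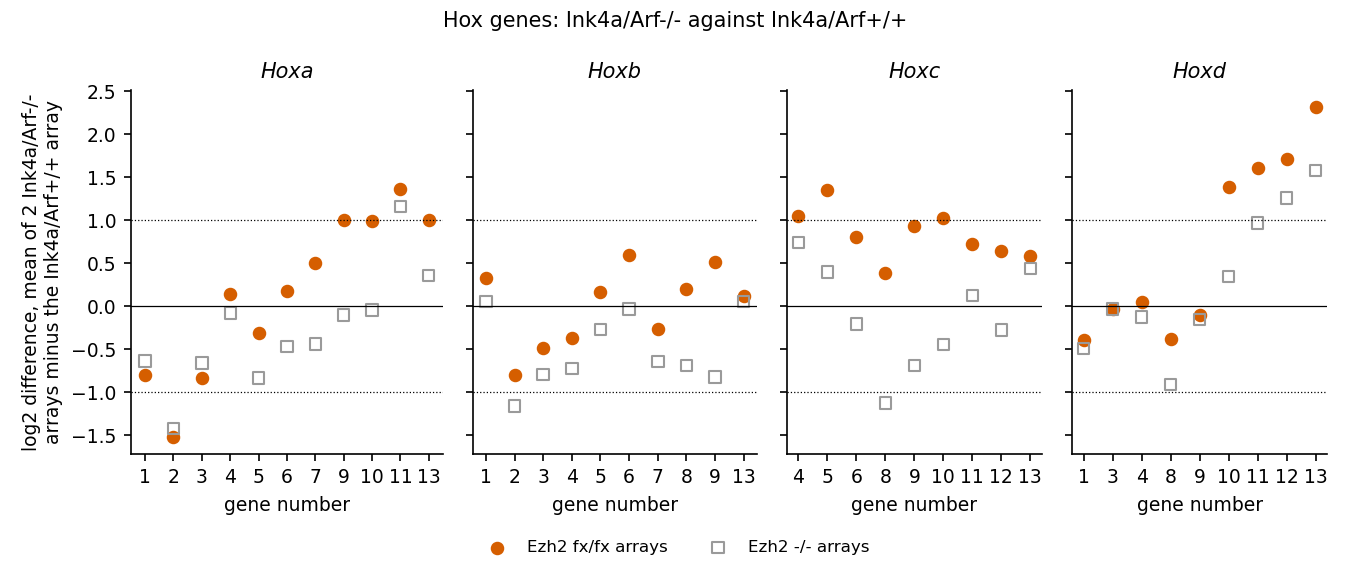
Mean log2 difference of Ink4a/Arf-/- from Ink4a/Arf+/+ for 39 Hox genes, by cluster and gene number, in Ezh2 fx/fx cells (orange circles) and Ezh2 -/- cells (open grey squares). Dotted lines mark 2-fold; Hoxd10 to Hoxd13 lie between 1.38 and 2.32 in Ezh2 fx/fx cells, and all 9 Hoxc genes lie higher in Ezh2 fx/fx than in Ezh2 -/- cells.

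Other transcription factors of development split in both directions: of 113, 11 were called higher and 16 lower, beside 2.21% and 2.86% of all genes. Genes known from limb development were among the higher ones. Shox2 read 8.44 and 8.44 in Ink4a/Arf-/- cells and 5.82 in Ink4a/Arf+/+ cells, and Tbx4, a hindlimb factor, read 9.53 and 9.45 against 7.37. Tbx5, its forelimb counterpart, read 8.45 and 8.42 in Ink4a/Arf-/- cells and 6.70 in Ink4a/Arf+/+ cells. Pitx1 and Isl1, which act upstream in the hindlimb, were both higher by 1.59. The basic helix-loop-helix factor Twist2 was higher by 2.28.

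The factors called lower included Sox9 and Sox6, which direct cartilage formation. Sox9 read 10.43 and 10.40 in Ink4a/Arf-/- cells and 12.56 in Ink4a/Arf+/+ cells, and Sox6 read 8.43 and 8.35 against 10.54. Foxp2, Eya4, Pax9, Foxc1, Gata6 and Osr1 were also lower, with differences of -1.37 for Gata6 to -2.11 for Eya4. Tbx20, a factor of heart development, read 6.02 and 6.07 in Ink4a/Arf-/- cells and 8.35 in Ink4a/Arf+/+ cells.

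Collagens were called lower in 7 of 33 genes and higher in none, beside 2.86% and 2.21% of all genes. Col2a1, the main collagen of cartilage, read 10.42 and 10.41 in Ink4a/Arf-/- cells and 13.05 in Ink4a/Arf+/+ cells. Col14a1, a fibril-associated collagen, read 7.82 and 7.80 against 10.37 in Ink4a/Arf+/+ cells. Col9a1 and Col11a1, which join type II collagen in cartilage fibrils, differed by -1.40 and -1.28, and Col8a2, Col6a2 and Col18a1 by -2.11, -1.11 and -1.06. The list's median was -0.53, and 25 of the 33 genes lay below the Ink4a/Arf+/+ array on both Ink4a/Arf-/- arrays, as did 42.6% of all genes. Col1a1 and Col1a2 differed by -0.29 and -0.17.

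Of 58 other matrix and matrix-remodelling genes, 17 were called lower and 4 higher, beside 2.86% and 2.21% of all genes. The small leucine-rich proteoglycans, which bind collagen fibrils, supplied several of the lower ones: Fmod read 10.20 and 10.06 in Ink4a/Arf-/- cells and 13.05 in Ink4a/Arf+/+ cells, Omd read 6.35 and 6.23 against 9.15, and Lum read 6.44 and 6.64 against 8.04. Comp, a pentameric protein of cartilage and tendon, read 7.72 and 7.58 in Ink4a/Arf-/- cells and 9.96 in Ink4a/Arf+/+ cells. Mgp, an inhibitor of calcification, and Nid2, a basement membrane linker, differed by -2.15 and -2.14. The 4 genes called higher were Tnn, Thbs4, Mmp9 and Matn2. Tnn, a tenascin, read 8.56 and 8.58 in Ink4a/Arf-/- cells and 6.63 in Ink4a/Arf+/+ cells, and Mmp9, a gelatinase, read 8.61 and 8.64 against 7.10.

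Of 13 cartilage and bone markers, 4 were called lower (Col2a1, Comp, Acan and Sox9) and none higher, beside 2.86% and 2.21% of all genes. Col2a1, Comp and Sox9 are also counted in the lists above. The other 9 markers were not called. The 13 markers' summed linear levels were 18148 and 17715 in Ink4a/Arf-/- cells and 34408 in Ink4a/Arf+/+ cells. Acan, the large proteoglycan of cartilage, read 10.07 and 10.03 in Ink4a/Arf-/- cells and 12.28 in Ink4a/Arf+/+ cells. Markers of bone showed no call: Runx2 read 10.64 and 10.74 against 10.88 in Ink4a/Arf+/+ cells, and Spp1 read 13.52 and 13.46 against 13.44. In bulk samples, fewer cells of a type and less RNA per cell cannot be told apart.

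**Figure D4:**
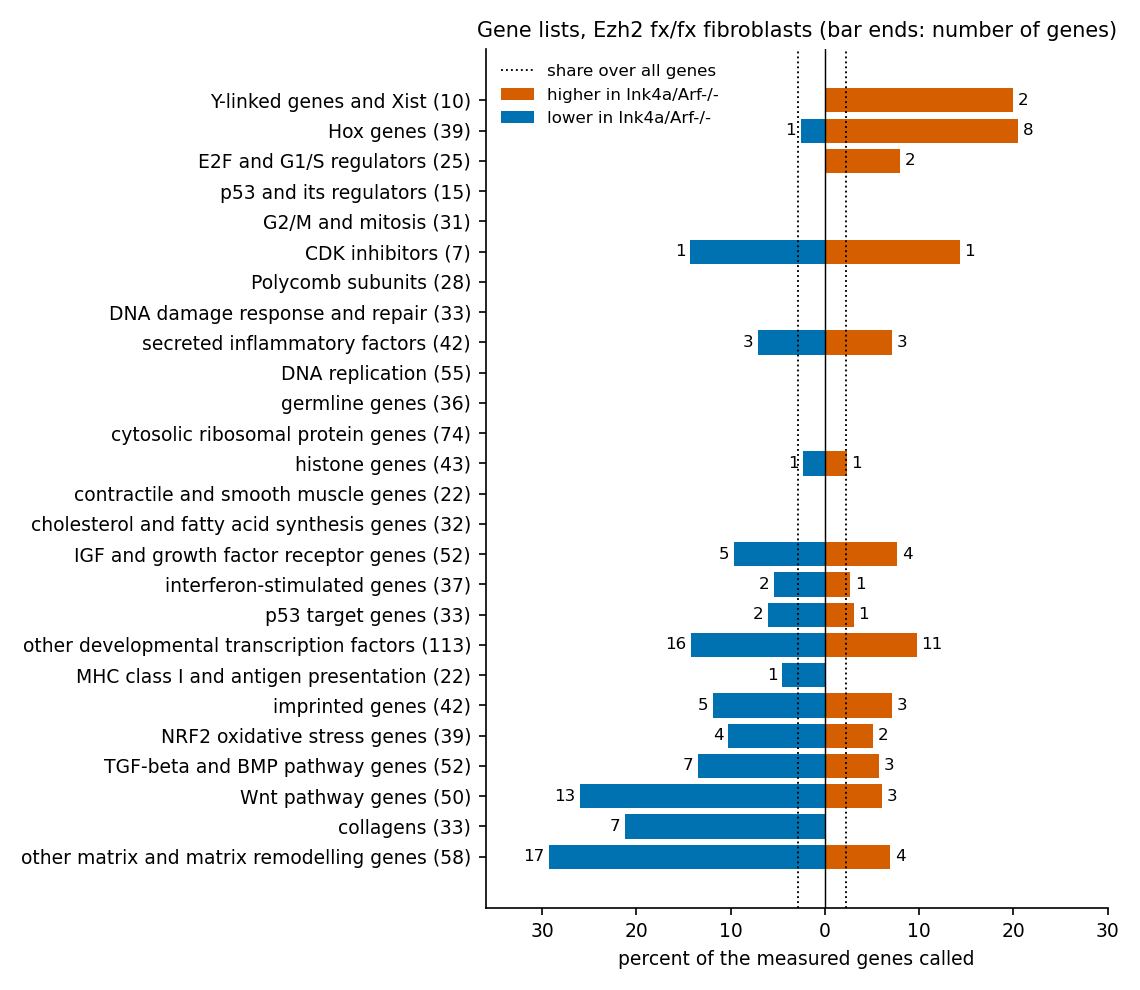
Percent of the measured genes of each of 26 lists that were called higher in Ink4a/Arf-/- cells (orange, to the right) or lower (blue, to the left), with the number of genes at the bar ends and the list size in parentheses. Dotted lines give the shares over all genes, 2.21% higher and 2.86% lower; the Wnt, collagen and other matrix lists reach farthest to the left and the Hox list and Y-linked list farthest to the right.

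Macrophage and blood markers were higher in Ink4a/Arf-/- cells, with 5 of 15 called (Lyz2, Laptm5, Csf1r, Itgam and Emr1), none called lower and a median difference of 0.92, beside 2.21% called higher, 2.86% called lower and a median of 0.02 over all genes. Lyz2, the macrophage lysozyme, read 10.88 and 10.42 in Ink4a/Arf-/- cells and 6.45 in Ink4a/Arf+/+ cells. Csf1r, the receptor for the macrophage growth factor, read 8.40 and 8.23 against 6.63 in Ink4a/Arf+/+ cells, and Itgam, an integrin of myeloid cells, read 7.61 and 7.30 against 5.94. Replicate 1 exceeded replicate 2 for all 5 called genes. The summed linear levels of the 15 markers were 4697 and 3774 in Ink4a/Arf-/- cells and 1302 in Ink4a/Arf+/+ cells. Ptprc, the pan-leukocyte marker CD45, read 6.69 and 6.66 in Ink4a/Arf-/- cells and 6.17 in Ink4a/Arf+/+ cells and was not called. The haemoglobin genes had replicates on opposite sides of the Ink4a/Arf+/+ array. Hba-a1 read 5.50 and 6.40 in Ink4a/Arf-/- cells against 6.21, and Hbb-b1 read 5.54 and 4.11 against 5.23. Lyz1 and Lyz2 are near-identical copies whose signals may be mixed.

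Genes outside the marker list that are known from macrophages were among the 20 largest upward differences: the scavenger receptor gene Msr1 was higher by 2.95, the complement subunit gene C1qb by 2.95, the complement receptor gene C3ar1 by 2.56, and Cd72 by 2.77. Pla2g7, a phospholipase secreted by macrophages among other cells, was higher by 2.97. The part that such cells, or such transcripts, had in other differences was not tested. From replicate 1 alone, 8 of the 15 markers were higher and 0 lower, and from replicate 2 alone, 5 were higher and 1 lower. In Ezh2 -/- cells 7 of the 15 were called higher and 2 lower, with a median of 1.03.

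Promoters of these genes are shown because their levels moved together. In the 250 bases upstream of the RefSeq start sites, the letters AGGAAGT, a core bound by ETS factors such as PU.1 of myeloid cells, were searched on both strands and occur in 2525 of 32851 promoters (7.69%). Of the 15 markers and the 3 C1q genes, 10 had a promoter in the table, and 5 of them held the letters (C1qb, C1qc, Lyz1, Lyz2 and Ptprc). The version and genes were looked at after the levels were known: the longer GAGGAAGT, which contains it, was in 1 of the 10 and in 2.44% of promoters, and the shorter GAGGAA, which overlaps both, was in 7 of the 10 and in 23.3%. A match describes letters and is no binding site. Capitals mark the searched letters, which lie on the opposite strand here, in Lyz2 at chr10:117282273-117282522 and C1qc at chr4:136892915-136893164 (GRCm38.p6, minus strand).
Lyz2: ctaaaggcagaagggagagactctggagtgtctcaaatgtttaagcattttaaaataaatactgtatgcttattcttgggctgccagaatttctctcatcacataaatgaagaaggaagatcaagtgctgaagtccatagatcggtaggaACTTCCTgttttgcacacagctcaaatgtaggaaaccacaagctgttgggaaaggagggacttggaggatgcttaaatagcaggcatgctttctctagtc
C1qc: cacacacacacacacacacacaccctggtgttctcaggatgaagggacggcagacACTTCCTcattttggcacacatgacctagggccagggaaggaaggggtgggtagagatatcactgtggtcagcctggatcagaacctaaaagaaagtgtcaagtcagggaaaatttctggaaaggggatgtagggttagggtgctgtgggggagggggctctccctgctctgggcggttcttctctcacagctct

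**Figure D5:**
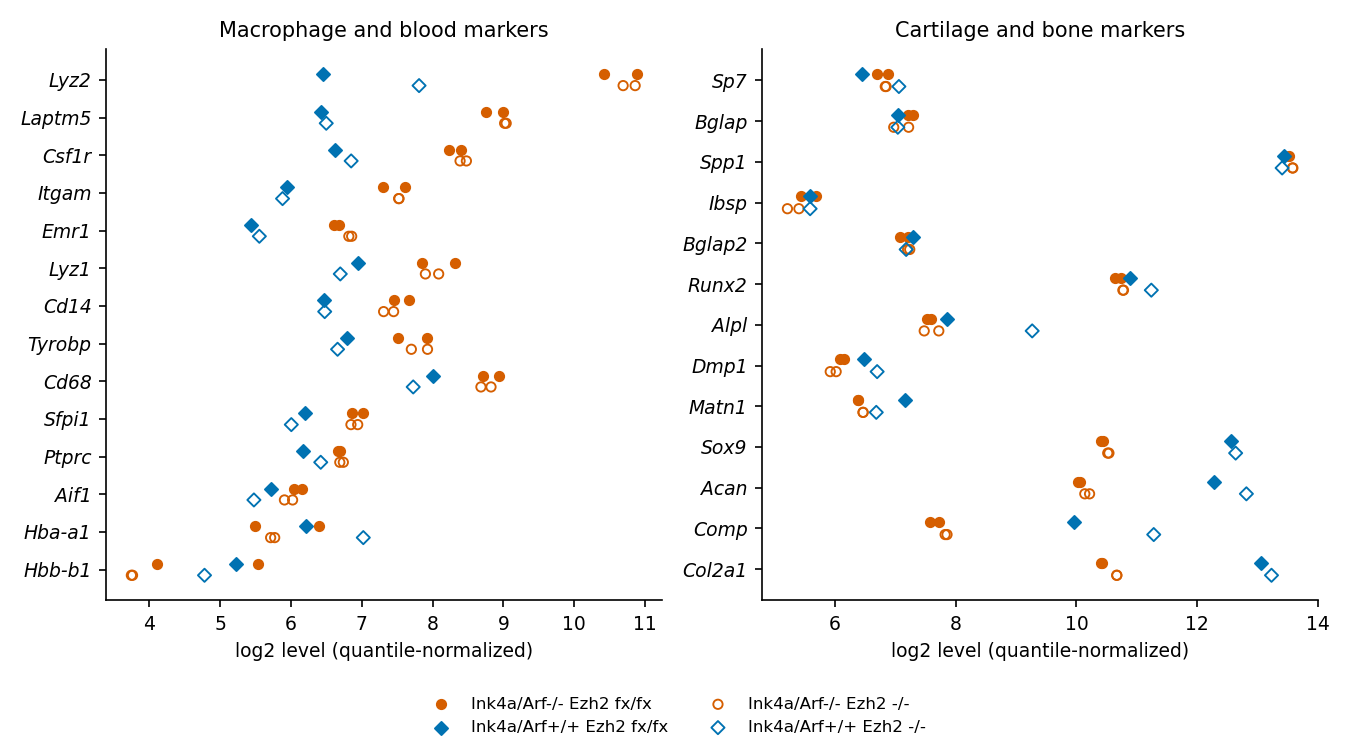
Log2 levels of 14 of the 15 macrophage and blood markers (left) and 13 cartilage and bone markers (right) on all 6 arrays, with Ink4a/Arf-/- in orange, Ink4a/Arf+/+ in blue, Ezh2 fx/fx filled and Ezh2 -/- open. Lyz2, Laptm5, Csf1r, Itgam and Emr1 lie higher, and Col2a1, Comp, Acan and Sox9 lower, in Ink4a/Arf-/- cells in both Ezh2 states.

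Signals of other cell types were weaker or mixed. The calls below stand beside 2.21% of all genes called higher and 2.86% called lower. Of 12 epithelial markers the simple keratin genes Krt18 and Krt19 were called higher, at 8.89 and 8.68 against 7.29 in Ink4a/Arf+/+ cells and at 9.67 and 9.39 against 7.94, while Epcam read 6.27 and 6.15 in Ink4a/Arf-/- cells and 6.38 in Ink4a/Arf+/+ cells. Of 12 endothelial markers Erg was called lower, at 7.87 and 7.79 in Ink4a/Arf-/- cells and 10.30 in Ink4a/Arf+/+ cells, while Cdh5 differed by 0.28. Of 16 neural and glial markers Fabp7, Stmn2 and Sox2 were called higher and Mtap2 and S100b lower. Of 11 fat cell markers the fatty acid transporter gene Cd36 was called higher and the master regulator Pparg lower, at 8.20 and 8.24 in Ink4a/Arf-/- cells and 10.01 in Ink4a/Arf+/+ cells. Sox2 was the called gene of 13 pluripotency markers, at 7.15 and 7.05 against 5.95, and none of 15 skeletal muscle markers was called.

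Wnt pathway genes were called lower in 13 of 50 and higher in 3, beside 2.86% and 2.21% of all genes. Among receptors, Lgr5, which binds R-spondins, read 9.16 and 9.12 in Ink4a/Arf-/- cells and 12.49 in Ink4a/Arf+/+ cells, and Fzd8, a Frizzled receptor for Wnt proteins, read 9.44 and 9.38 against 12.30. Among ligands, Wnt16 read 7.81 and 7.69 in Ink4a/Arf-/- cells and 10.36 in Ink4a/Arf+/+ cells, and the R-spondin gene Rspo2 read 9.10 and 9.16 against 11.59. The secreted antagonist gene Sfrp2 differed by -2.28. In the other direction, Wnt2b read 9.54 and 9.35 in Ink4a/Arf-/- cells and 7.36 in Ink4a/Arf+/+ cells, the nuclear factor gene Lef1 was higher by 1.54 and the antagonist gene Dkk2 by 1.48. The list thus held both ligands and antagonists on each side.

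In the TGF-beta and BMP pathways 7 of 52 genes were called lower and 3 higher, beside 2.86% and 2.21% of all genes, with a list median of -0.33. The BMP ligand genes Bmp4 and Bmp2 differed by -1.19 and -1.47. Id1 and Id3, which BMP signalling induces in many cells, were both lower: Id3 read 9.38 and 9.17 in Ink4a/Arf-/- cells and 11.08 in Ink4a/Arf+/+ cells, and Id1 had a difference of -1.82. Smad6, an inhibitory Smad that the pathway also induces, differed by -1.54. The secreted BMP antagonist Grem1 read 11.63 and 11.74 in Ink4a/Arf-/- cells and 9.67 in Ink4a/Arf+/+ cells.

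Of 52 genes of growth factors and their receptors, 4 were called higher and 5 lower, beside 2.21% and 2.86% of all genes. Hbegf, a ligand of the EGF receptor, was among the higher ones and read 12.31 and 12.41 in Ink4a/Arf-/- cells and 10.88 in Ink4a/Arf+/+ cells. Fgf18, a growth factor of cartilage and bone, read 8.20 and 8.08 in Ink4a/Arf-/- cells and 11.15 in Ink4a/Arf+/+ cells, and Igf1 read 8.50 and 8.63 against 10.82. The receptor genes Fgfr3 and Fgfr2 differed by -1.92 and -1.76. Igf2 was called higher, at 12.45 and 12.42 in Ink4a/Arf-/- cells and 11.42 in Ink4a/Arf+/+ cells.

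Secreted inflammatory factors, which include components of the senescence-associated secretory program, had 3 of 42 genes called higher and 3 lower, beside 2.21% and 2.86% of all genes. Ccl2, a monocyte-attracting chemokine, read 10.64 and 10.47 in Ink4a/Arf-/- cells and 8.62 in Ink4a/Arf+/+ cells. Igfbp6 and Igfbp2, which bind insulin-like growth factors, went opposite ways, Igfbp6 at 11.31 and 11.17 against 8.81 in Ink4a/Arf+/+ cells and Igfbp2 at 10.92 and 10.70 against 13.69. The interleukin 1 receptor antagonist gene Il1rn differed by -2.03 and the chemokine gene Cxcl15 by -2.42, and Lif was higher by 1.05. Of 37 interferon-stimulated genes 1 was called higher and 2 lower: the chemokine gene Cxcl10 read 8.62 and 8.60 in Ink4a/Arf-/- cells and 6.14 in Ink4a/Arf+/+ cells, and Ifitm1 read 8.06 and 8.14 against 10.67. The antiviral gene Mx1 read 4.20 and 4.26 against 5.32, at the dim end of the scale. From replicate 1 alone, 4 interferon-stimulated genes were lower and 1 higher. Of 22 genes of MHC class I and antigen presentation, Cd80, a ligand that costimulates T cells, was called lower. It read 9.18 and 9.15 in Ink4a/Arf-/- cells and 10.63 in Ink4a/Arf+/+ cells. The other of its 2 probe sets was not called, with a lesser difference of -0.09.

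Imprinted genes are expressed from the copy of a single parent, and 5 of 42 were called lower and 3 higher, beside 2.86% and 2.21% of all genes. Mest read 10.41 and 10.39 in Ink4a/Arf-/- cells and 13.58 in Ink4a/Arf+/+ cells. The neighbours Peg3 and Zim1 were both lower, Peg3 at 9.37 and 9.48 against 12.13 in Ink4a/Arf+/+ cells and Zim1 with a difference of -4.01. Dio3, which inactivates thyroid hormone, and Plagl1, a zinc finger factor, differed by -2.16 and -1.33. Gatm, Asb4 and Igf2 were the genes called higher, with Asb4 at 8.77 and 8.89 in Ink4a/Arf-/- cells and 6.97 in Ink4a/Arf+/+ cells.

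Of 39 genes of the NRF2 oxidative stress response, Gsta4 and Gsta1 were called higher and Aldh1a1, Gstt1, Gpx3 and Ephx1 lower, beside 2.21% and 2.86% of all genes. Aldh1a1, a retinaldehyde dehydrogenase with the close copy Aldh1a7, read 6.12 and 6.18 in Ink4a/Arf-/- cells and 8.70 in Ink4a/Arf+/+ cells. Gsta1 read 5.83 and 4.81 in Ink4a/Arf-/- cells and 3.76 in Ink4a/Arf+/+ cells, so its replicates lay 1.02 apart. Of 43 histone genes Hist1h2bg was called higher and Hist2h3c2-ps, a pseudogene, lower. Of the Y-linked genes, Eif2s3y read 10.33 and 10.41 in Ink4a/Arf-/- cells and 8.54 in Ink4a/Arf+/+ cells and Uty read 9.76 and 10.03 against 8.64, whereas Ddx3y read 10.03 and 10.26 against 10.45; Xist read 4.91 and 5.20 against 5.09.

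Several groups held no call in either direction, beside 2.21% of all genes called higher and 2.86% called lower. They were the 74 cytosolic ribosomal protein genes, whose median difference was -0.01, the 32 cholesterol and fatty acid synthesis genes, the 36 germline genes and the 22 contractile and smooth muscle genes. In the ribosomal list Rps3 read 12.41 and 12.43 in Ink4a/Arf-/- cells and 11.79 in Ink4a/Arf+/+ cells. In the contractile list the smooth muscle myosin gene Myh11 read 8.72 and 8.60 in Ink4a/Arf-/- cells and 9.59 in Ink4a/Arf+/+ cells.

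The same contrast in Ezh2 -/- cells uses 3 other arrays but runs across the same 2 tables, so a feature of the tables would show in both. There 613 genes (2.96%) were called higher and 743 (3.59%) lower. Of the 457 genes called higher in Ezh2 fx/fx cells, 359 were also called higher in Ezh2 -/- cells, which is 78.6% of the Ezh2 fx/fx list and 58.6% of the Ezh2 -/- list. Of the 593 called lower, 483 were also called lower, which is 81.5% and 65.0% of the lists. No gene was called in opposite directions. Lect1 differed by -6.29 in Ezh2 fx/fx cells and -5.76 in Ezh2 -/- cells, Lrrc15 by 4.49 and 4.61, Prelp by -4.45 and -4.51, and Aldh1a1 by -2.55 and -5.37. Dpt, a dermal matrix protein gene, was called in Ezh2 fx/fx cells (-1.97) and not in Ezh2 -/- cells (-0.30), and Fabp7, a fatty acid binding protein of glia, behaved alike at 1.42 and 0.13; these differences were not tested.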

How the data were processed

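RNA of 6 fibroblast samples was measured on Affymetrix arrays. The authors deposited log2 levels, log2 fold changes and p-values in 2 tables; the submitters' processing notes name limma; of the normalization the sources used here say nothing. The deposited p-values and log2 fold changes test Ezh2 within a background and were not used. The levels were joined by probe set and quantile-normalized over 6 arrays with Python 3.11.15, numpy 2.4.6 and pandas 2.3.3; figures were drawn with matplotlib 3.10.9. The deposited series matrix, also log2, held the same levels. Each gene was represented by its probe set with the highest mean over 6 arrays. Named genes were Ezh2, Cdkn2a, Cdkn2b and Mtap, the 20 called genes with the largest lesser difference in each direction, up to 4 members of each of 26 gene lists and 9 marker lists, and each gene behind a count of 5 or fewer, without unnamed predicted genes, small RNAs, pseudogenes and chemosensory receptors; further genes were named after their values were seen, and a few selected genes are not reported here. Of 20723 symbols, 18406 are current in RefSeq (GRCm38.p6), 1979 are older and 338 matched neither; of 1177 list entries 24 were not found. The members and lists were chosen with earlier results of these data known. The calling code was tested on simulated data. Alternatives changed the normalization, the filter on dim probe sets, the call and the replicates.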

Additional observations from a re-analysis of the deposited data

Results flagged for a closer look

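Several results ran opposite ways in the Ezh2 states, on both Ink4a/Arf-/- arrays of each, without a test of the difference. Both differences of a state were taken from the same single Ink4a/Arf+/+ array, so their agreement is no replication. For Igf2 the 4 Ink4a/Arf-/- arrays read 12.42 to 12.48. The Ink4a/Arf+/+ arrays read 11.42 in Ezh2 fx/fx and 12.81 in Ezh2 -/- cells. Gsta1, at 3.52 to 5.83 on the 6 arrays, lay at the dim end of the scale. Tbx20 differed by -2.31 in Ezh2 fx/fx cells and 0.48 in Ezh2 -/- cells, Myh11 by -0.92 and 0.21, Igf2 by 1.02 and -0.33, Gsta1 by 1.56 and -0.35, and the germline list's Xlr3b by -0.64 and 0.91 (Ink4a/Arf-/- minus Ink4a/Arf+/+, log2). Among lists, the mean of the 2 arrays' median differences was 0.42 and -0.22 for Hox genes, -0.085 and 0.090 for Y-linked genes and Xist, -0.050 and 0.013 for contractile genes, -0.14 and 0.06 for histone genes, 0.026 and -0.15 for p53 target genes, and 0.018 and -0.11 for pluripotency markers. Apart from Hox genes, these list values were under 0.2 in size in both Ezh2 states. The signs are against 0, and the median over all genes was 0.017 in Ezh2 fx/fx and 0.015 in Ezh2 -/- cells. The p53 target and pluripotency values in Ezh2 fx/fx cells and the contractile value in Ezh2 -/- cells lay close to those medians, so they show no reversal of these lists.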

How the results depend on the processing

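Of 1189 called probe sets, none was called the other way under any alternative. The dim filter, the mean of the arrays and the single arrays could not reverse a call, because a call needs both arrays on the same side. Nor could the series matrix, which held the same levels and was normalized alike. The 3-array normalization and the ranks could not either, because both keep the order within each array, which sets the sign of a difference. A reversal was possible only with centring and with levels as given. As for calls kept, 1180 probe sets kept theirs with 3 arrays normalized, 1140 with ranks, 1010 with centring and 772 with levels as given. With the deposited levels used as given, 6834 were higher and 238 lower and 5520 were also called in Ezh2 -/- cells, against 534, 655 and 938; by construction that setting keeps the 0.81 offset between the tables. From a single Ink4a/Arf-/- array (without replicate 1 or without replicate 2), 627 to 662 were higher, 732 to 812 lower and 1048 to 1085 shared with Ezh2 -/- cells. Higher and lower counts were 532 and 657 with 3 arrays normalized, 603 and 756 with ranks, 433 and 553 without the dimmest 30% and 634 and 750 with the mean of the arrays. Of 35 list medians, 29 moved by more than the spread between replicates when levels were centred on the array medians, and 0 to 12 under other alternatives apart from levels as given, which moved 35. Centring gave 622 and 928, and the calls of Plk2, E2f6, Lif, Mx1, Igf2, Gsta1, Uty and Stmn2 were lost; Mx1 and Gsta1 were also lost with ranks, and levels as given lost 16 of 127 calls of named genes (Cdkn2c, Perp, Fas, Hoxa2, Col9a1, Mx1, Cd80, Plagl1, Hist2h3c2-ps, Smad6, Ntrk3, Gstt1, Gpx3, Ephx1, Lum and S100b). Centring also turned the median of the repair, E2F, G2/M, MHC, Y-linked, fat cell, germline, p53, p53 target and secreted factor lists to the other side of that of all genes; the cause was not tested. No paired analysis was possible because the Ink4a/Arf+/+ array carries no replicate number. Among genes called higher 124, and among those called lower 103, lay below the 50th percentile of the array in their brighter group, where signal over background is unknown.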

Other observations

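Called genes were in places neighbours in the RefSeq gene order. Of 16673 genes placed, 943 were called, and 132 of the called genes had a neighbour called in the same direction. How many such neighbours the share of called genes would give by itself was not worked out. In all, 5 runs of 3 or more such genes held 16 genes, with Hoxd13 to Hoxd10 as the longest. Genes of the first complement component split between runs: C1qa, C1qb and C1qc, the subunits of the recognition molecule C1q, were higher in Ink4a/Arf-/- cells, and C1ra, C1s and C1rb, the proteases that join it, were lower. C1qc read 8.92 and 8.34 in Ink4a/Arf-/- cells and 6.53 in Ink4a/Arf+/+ cells. C1rb read 8.37 and 8.32 in Ink4a/Arf-/- cells and 10.97 in Ink4a/Arf+/+ cells, and C1s read 6.68 and 7.05 against 8.65. C1ra and C1rb are close copies, and cross-hybridisation between them was not tested.

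Serpinb6b, Serpinb9 and Serpinb9b, intracellular protease inhibitors of a gene family with close copies, formed another run that was lower in Ink4a/Arf-/- cells, with differences of -2.77, -1.85 and -1.75. These genes were chosen after their values were seen.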
